A study of Homo sapiens with 6 samples.

Results

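The genes described here encode SNARE proteins (soluble NSF attachment protein receptors) and the factors that take SNARE complexes apart, the machinery that fuses transport vesicles with their target membranes. The 36 members were listed by gene symbol, by a rule that uses no measured value, but with earlier results of these data known. Of the 36 members, 35 had an entry among the 17297 genes of the count table. VAMP7 was not analysed here because no entry carried that symbol. SNAP23 is a gene that the study itself labelled. The samples were RNA-seq libraries of the human prostate cancer cell line LNCaP, established from a lymph node metastasis, which stably carried either pBabe-GNA13 or the empty pBabe-vector. GNA13 encodes Gα13, the α subunit of a heterotrimeric G protein, and pBabe is a retroviral expression vector. Each line was sequenced as 3 biological replicates of cells cultured for 48 h. The transgene was the wild-type GNA13 coding sequence, and the study's methods state that transduced cells were kept in puromycin, the drug that selects for the vector used. Whether puromycin was present during the 48 h culture is not given in the sources used here. The labels give the genotype of all 6 samples as wild type, so the transgene was expressed on top of the cells' own GNA13. A condition was represented by 1 stable line, so the effect of Gα13 and any other difference between these lines cannot be told apart, and p-values measure only the spread between the cultures sequenced.

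SNAREs are short, mostly tail-anchored proteins that sit on vesicles and on target membranes. A fusion complex zips together 1 helix each of the Qa, Qb, Qc and R classes, where Qbc proteins such as SNAP23 supply both the Qb and the Qc helix. The ATPase NSF, recruited by the adaptors α-SNAP (NAPA) and γ-SNAP (NAPG), pulls the spent complex apart so that its parts can be used again. Which SNAREs pair decides much of the route, from endoplasmic reticulum to Golgi, between endosomes and the trans-Golgi network, to lysosomes and autophagosomes, or to the plasma membrane, where prostate luminal cells release their secretory products.

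Library totals ranged from 33002160 to 40628970 counts, and 3 counts, used as the floor of detection, equalled 0.0715 to 0.0935 CPM (counts scaled to a common library size) after TMM normalization. Such floors cover counting error alone, because the reads carried no molecular identifiers and repeated copies of 1 molecule were not removed by them. GNA13 was at 820.1, 886 and 747 CPM in the pBabe-GNA13 libraries and at 76.7, 69.4 and 65.4 CPM in the pBabe-vector libraries, a log2 fold change of 3.54 ± 0.12 (SE, n = 3 per line, adjusted p = 9.12e-05, edgeR quasi-likelihood test with Benjamini-Hochberg adjustment). The libraries therefore carried the transgene that their labels name. The luminal prostate markers KLK3, TMPRSS2, KRT8 and KRT18 had mean levels from 230.2 to 2954 CPM, and their sum ran from 3462 to 5876 CPM in pBabe-GNA13 and from 2711 to 5234 CPM in pBabe-vector. KRT8, KRT18 and KLK3 had log2 fold changes of 0.33, 0.25 and 0.19 in that test (adjusted p = 0.350, 0.593 and 0.974). In a fit with the replicate pairs as a block, these 3 were called higher in pBabe-GNA13 (adjusted p = 3.96e-05, 0.0005 and 0.0076). Of 5 markers of other cell types, PTPRC and PECAM1 had no entry, and COL1A1, VIM and KRT5 summed to 21.3 to 28.5 CPM in pBabe-GNA13 and 14.0 to 27.0 CPM in pBabe-vector. KRT5, a basal keratin, was at 3.08, 0 and 3.72 CPM in pBabe-GNA13 libraries std, 2 and 3 and at 0.572, 0 and 0.592 CPM in pBabe-vector libraries 1, 2 and 3 (log2 fold change 2.52, adjusted p = 0.709 without the block and 7.2e-07 with it). VIM, a mesenchymal filament, was at 3.43, 4.08 and 3.69 CPM against 1.72, 3.90 and 1.93 CPM (0.57, 0.740 and 0.0152). These markers thus moved with the blocked calls described next, and their part in them was not tested. Libraries of both lines that share a replicate number, or the tag std, deviated from their group means together, and so formed 3 pairs. In these bulk samples, fewer cells with a transcript and less of it per cell cannot be told apart.

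None of the 35 genes passed an adjusted p of 0.05 when the lines were compared without regard to the pairs, against 24 genes (0.139%) of the whole table. The smallest adjusted p was 0.309, for VAMP1, and 3 genes, VAMP1, STX16 and STX10, had an unadjusted p under 0.05, where 8.46% of all genes did. Fold changes were small. The log2 fold change was above 0 for 14 genes and below 0 for 21, and ran from −0.38 for STX16 to 0.66 for VAMP1. Its median was −0.03, beside −0.0013 over all genes and −0.0149 over the 12778 genes with a mean log2 CPM above 1. For 33 of the 35 genes the 95% interval of the log2 fold change lay within −1 and 1, and leaving out VAMP1 and the barely expressed VAMP5 the outermost bounds were −0.68 and 0.65.

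With the pairs as a block, 8 of the 35 genes (22.9%) passed, beside 19.7% of all genes. The 2 that rose in pBabe-GNA13 cells were VAMP1 and STX2, and 9.32% of all genes were called higher. The 6 that fell were STX16, STX10, VAMP2, USE1, SNAP29 and NSF, and 10.4% of all genes were called lower. The groups of libraries did not overlap for 10 of the 35 genes, with 2 higher and 8 lower in pBabe-GNA13, beside 14.1% of all genes. All 3 pairs had the same sign for 17 of the 35, with 5 higher and 12 lower, beside 49.9% of all genes. The share of SNARE genes called with the block (22.9%) was close to the share called in the table as a whole (19.7%). The share without overlap was larger among the SNARE genes than in the whole table, mostly through lower genes, and this difference was not tested. By another count tool, DESeq2 with the same block, 6 of the 35 passed (STX16, VAMP2, STX10, VAMP1, STX2 and SNAP29), beside 11.3% of all genes tested. By limma-trend with the block none did, with a smallest adjusted p of 0.0723, beside 2.50% of all genes called. In that fit an unadjusted p under 0.05 was reached by 12 of the 35, and by 4619 of all 17297 genes. In edgeR with the block, leaving out pair 2, pair 3 or the std pair left 7 of the 35 each time (20%), beside 14.7%, 13% and 18.9% of all genes.

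**Figure D1:**
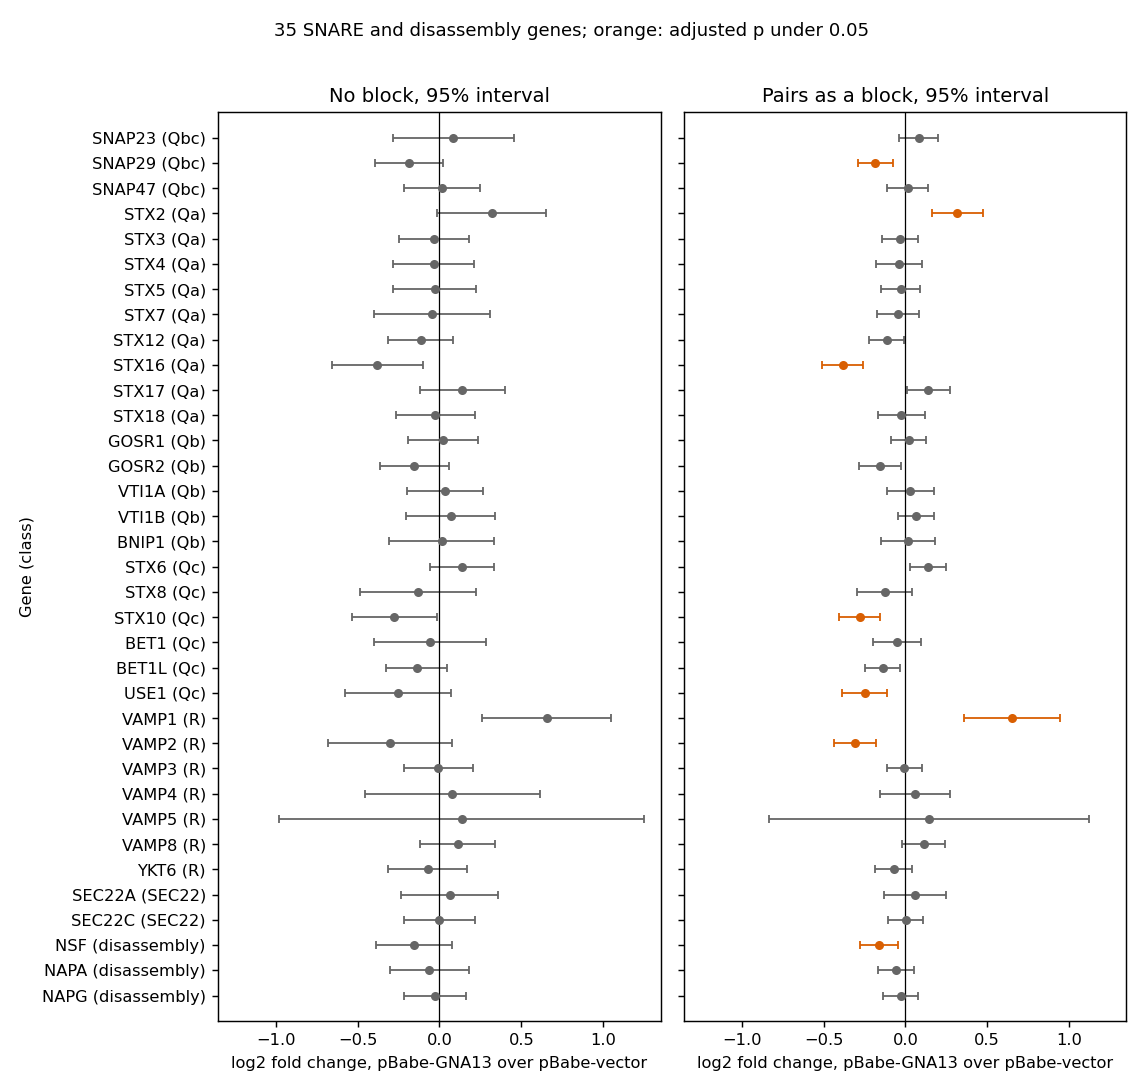
Log2 fold change of each of the 35 genes (pBabe-GNA13 over pBabe-vector, x axis) with its 95% interval, without regard to the pairs on the left and with the pairs as a block on the right; genes are ordered by class and those with an adjusted p under 0.05 are orange. No gene is orange on the left, and 8 are on the right, where most intervals are narrower and VAMP5 keeps by far the widest.

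Levels between genes were compared per kilobase of annotated exon, in the pBabe-vector libraries. VAMP8, an R-SNARE of late endosomes and secretory granules, had the highest level at 40.5 ± 2.27 CPM per kb (SD, n = 3). STX10, a Qc-SNARE of the trans-Golgi network, followed at 26.4 ± 1.49 CPM per kb and VAMP3, the R-SNARE of recycling endosomes, at 24.2 ± 0.616 CPM per kb. SNAP29 at 20.4 ± 1.22 and STX12 at 20.3 ± 0.923 CPM per kb differed by less than their SDs.

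SNAP23 took place 21 of 35 at 6.82 ± 1.00 CPM per kb, and its neighbours BNIP1 (6.84 ± 0.834) and STX4 (6.55 ± 0.0799) were within its SD. Among the plasma membrane Qa-SNAREs the level per kilobase was highest for STX3 at 10.9 ± 0.459, then STX4, and lowest for STX2 at 3.92 ± 0.431. VAMP1 at 1.07 ± 0.0902 and VAMP5 at 0.420 ± 0.142 CPM per kb closed the order, and VAMP5 rested on 7 to 20 counts per library. The lengths are those of all annotated exons together, so that a gene whose long exons are little used appears lower than it is.

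**Figure D2:**
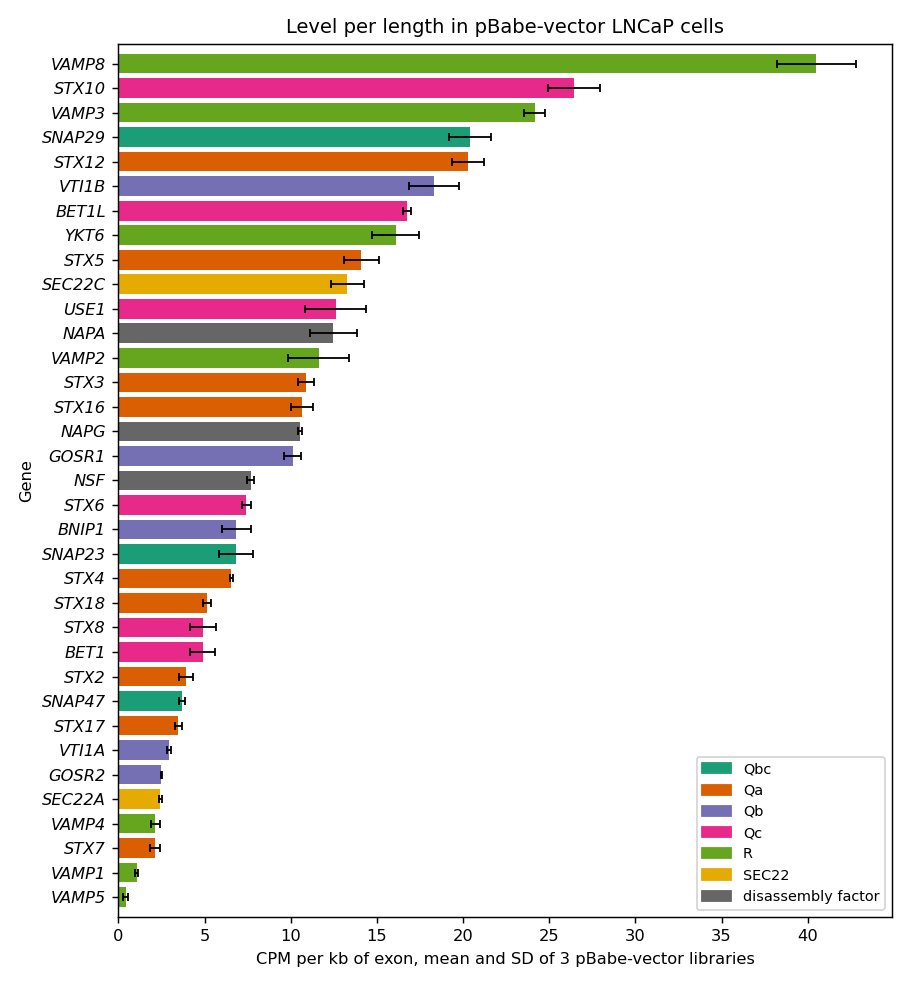
Level of the 35 genes in pBabe-vector LNCaP cells as CPM per kb of annotated exon (x axis), in falling order; bars are means and whiskers SDs of 3 libraries, and colours mark the SNARE class. VAMP8 stands first at 40.5 CPM per kb, SNAP23 sits in the middle at 6.82 and VAMP5 last at 0.420.

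RefSeq promoters (GRCh38.p14) were at hand for 32 of the 35 genes, not for STX17, BET1L and USE1, and their 250 bases before the gene start were searched on both strands for 6 short motifs, each counted once per promoter whatever it overlapped. The palindrome CACGTG, an E-box, was in 7 of 32 (21.9%) and in 6.46% of 27305 promoters of all genes. GGGCGG was in 19 (59.4%, against 42.2%) and CCAAT in 10 (31.2%, against 33.03%). TGACGTCA was in 1 (STX12; 1.75% of all). TGANTCA and TATAAA were in none, beside 6.57% and 11.2% of all promoters. The median GC content of these windows was 64.2% for SNARE genes and 57.6% for all promoters. The 30 bases around the E-box are printed for the 7 genes that hold it, since this motif had the largest ratio of its share to that of all promoters, with the motif in capitals and 12 bases on each side, in the direction of the gene. NAPA held a further copy 25 bases before its RefSeq start. Starts differ between annotations, and the STX6 site and this further NAPA site lie inside the Gencode spans of these genes.
SNAP29 (chr22:20858811-20858840, + strand): cggctttcccgcCACGTGacctctcagttg
STX2 (chr12:130839399-130839428, - strand): agggacaaacagCACGTGtagcggaactgc
STX6 (chr1:181022998-181023027, - strand): atatgccctggtCACGTGagcggggtgcgg
STX18 (chr4:4542416-4542445, - strand): agggtcaccgtcCACGTGcctctatcctgc
BNIP1 (chr5:173144371-173144400, + strand): ctgatttccctaCACGTGtcagggaaagtc
GOSR2 (chr17:46922955-46922984, + strand): cgccttgcccttCACGTGaagccgagcctg
NAPA (chr19:47515260-47515289, - strand): cttccacagggtCACGTGggaggtgaggta
The 7 genes did not share a direction. With the pairs as a block STX2 rose, SNAP29 fell, and the other 5 were not called. A match is a description of these letters and says nothing of whether a factor binds there.

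Of the Qbc-SNAREs, which bridge membranes with a pair of helices, SNAP23 is the widely expressed partner of plasma membrane syntaxins in exocytosis. SNAP23 (ENSG00000092531, chr15:42491233-42545356, + strand) was at 48.7, 43.2 and 34.97 CPM in pBabe-GNA13 libraries std, 2 and 3, and at 45.4, 40.6 and 33.7 CPM in pBabe-vector libraries 1, 2 and 3. In each pair the pBabe-GNA13 library was the higher one, and the groups overlapped almost entirely because the std pair was highest and pair 3 lowest in both lines. Its log2 fold change was 0.08 ± 0.16 (SE), with a 95% interval of −0.29 to 0.45 and an adjusted p of 0.984, and an exact two-sided permutation test on log2 CPM gave p = 0.70, where 3 against 3 libraries cannot go below 0.10. With the pairs as a block the interval narrowed to −0.04 to 0.20 and the adjusted p was 0.372. Without pBabe-vector replicate 3 the log2 fold change turned to −0.02.

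SNAP29 joins the autophagosomal STX17 and the lysosomal VAMP8 in the complex that fuses autophagosomes with lysosomes. SNAP29 (chr22:20859007-20891214, + strand) was at 87.0, 86.2 and 91.5 CPM in pBabe-GNA13 libraries std, 2 and 3, and at 95.1, 99.0 and 107 CPM in pBabe-vector. All 3 pBabe-GNA13 libraries lay below all 3 pBabe-vector libraries. The log2 fold change was −0.19 ± 0.09 (SE), with an adjusted p of 0.662 without the block and 0.0119 with it, and without pair 3 the blocked adjusted p was 0.175. Its partners were not called. The log2 fold change of STX17 was 0.14 (adjusted p = 0.877, 0.138 with the block), and VAMP8 is given with the R-SNAREs. SNAP47, a broadly distributed relative, had a log2 fold change of 0.02. SNAP47 shares 22.8% of its exon bases with JMJD4 on the opposite strand, whose log2 fold change was −0.05 (adjusted p = 0.771 with the block).

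**Figure D3:**
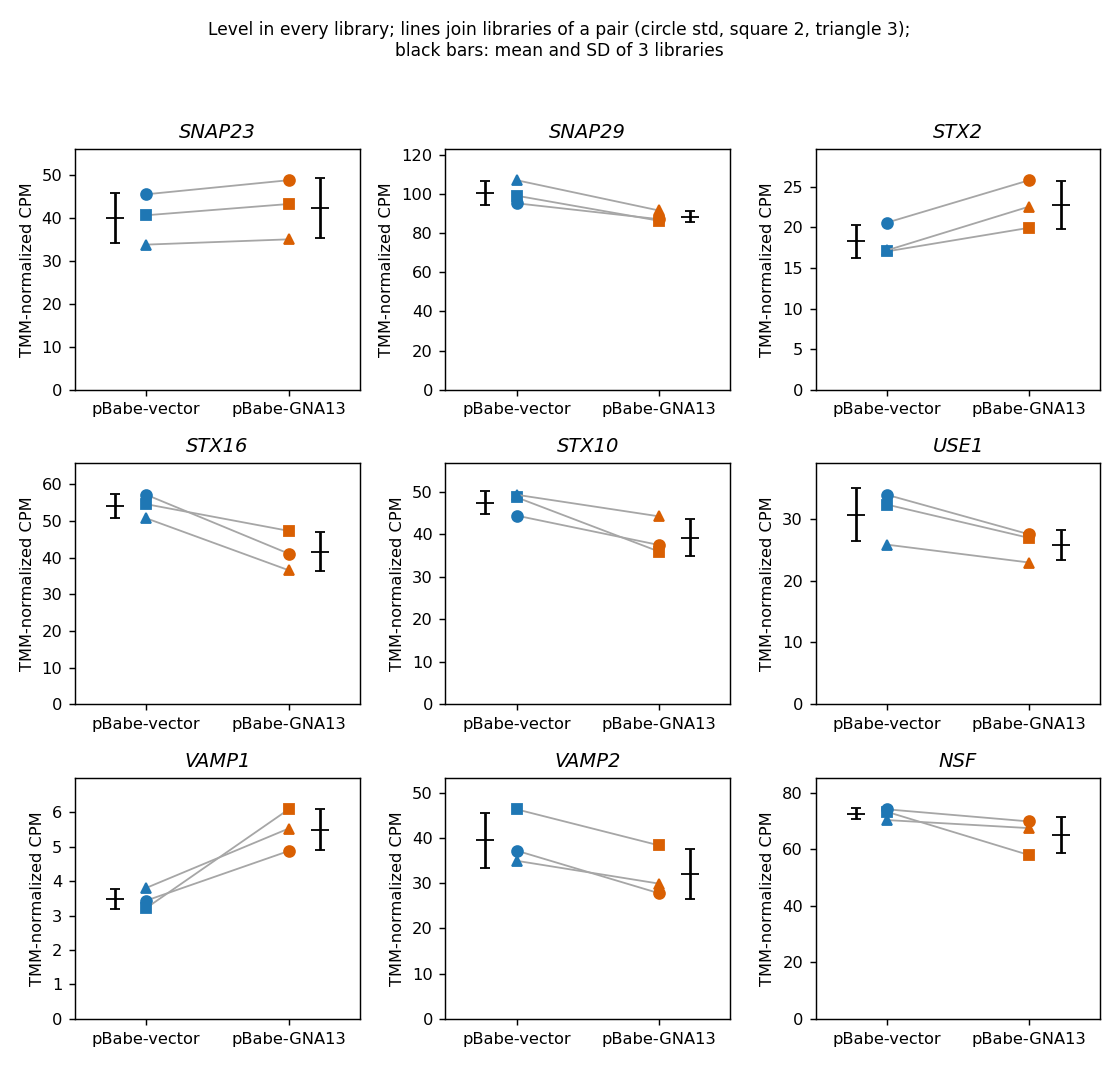
TMM-normalized CPM (y axis, from 0) of SNAP23 and of the 8 genes called with the pairs as a block, in every library; lines join the pBabe-vector and pBabe-GNA13 libraries of a pair and black bars give the mean and SD of 3 libraries. All lines slope the same way within a gene, and the flattest line is that of pair 3 in SNAP23. In SNAP23, STX2 and USE1 the pairs stand in the same order in both cell lines.

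The Qa-SNAREs, the syntaxins that mark the target membrane, numbered 9, of which 2 had a log2 fold change above 0. STX2, a plasma membrane syntaxin, was at 25.8, 19.9 and 22.6 CPM in pBabe-GNA13 libraries std, 2 and 3, and at 20.6, 17.04 and 17.2 CPM in pBabe-vector. Each pBabe-GNA13 library was above its pair, although pBabe-GNA13 replicate 2 lay below pBabe-vector replicate 1. STX2 (chr12:130789600-130839254, - strand) had a log2 fold change of 0.32 ± 0.14 (SE), with an adjusted p of 0.611 without the block and 0.0031 with it.

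The other plasma membrane syntaxins showed no call in either fit. STX3, the syntaxin of the apical surface of epithelial cells, was at 74.8, 83.7 and 75.2 CPM in pBabe-GNA13 and at 77.02, 78.5 and 83.4 CPM in pBabe-vector. STX4, the main partner of SNAP23 at the basolateral surface, was at 23.7, 27.9 and 26.2 CPM against 26.3, 26.9 and 26.4 CPM. The groups overlapped for both. The log2 fold change was −0.03 ± 0.09 (SE) for STX3, with a 95% interval of −0.25 to 0.18 and an adjusted p that rounds to 1. For STX4 it was −0.04 ± 0.11 (SE), with an interval of −0.28 to 0.21 and likewise an adjusted p that rounds to 1.

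STX16 is the syntaxin that receives endosome-derived vesicles at the trans-Golgi network. It was at 41.1, 47.3 and 36.5 CPM in pBabe-GNA13 libraries std, 2 and 3, and at 57.1, 54.5 and 50.7 CPM in pBabe-vector, so that every pBabe-GNA13 library was below every pBabe-vector library. STX16 (chr20:58651272-58679526, + strand) had the lowest fold change of the group, −0.38 ± 0.12 on the log2 scale (SE), which is 23.1% lower. Its adjusted p was 0.3995 without the block and 2.87e-05 with it, the smallest blocked value among the 35. STX16 shares 28.5% of its exon bases with the read-through gene STX16-NPEPL1 on the same strand, which was itself at a mean of 1.29 CPM with a log2 fold change of −0.88 (adjusted p = 0.0125 with the block). How reads of the shared exons were assigned is not given in the sources used here.

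The remaining Qa-SNAREs, STX5 of the Golgi, STX7 and STX12 of endosomes, STX17 of autophagosomes and STX18 of the endoplasmic reticulum, were not called in either fit. Their log2 fold changes ran from −0.12 for STX12 to 0.14 for STX17, the highest among the 20 genes that are given by range. STX12 was at 69.7 to 72.2 CPM in pBabe-GNA13 and at 73.1 to 79.5 CPM in pBabe-vector, without overlap, with an adjusted p of 0.851 and 0.127 with the block.

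None of the 5 Qb-SNAREs was called in either fit. GOSR2, the Qb-SNARE of vesicles that reach the Golgi from the endoplasmic reticulum, was at 33.4, 31.0 and 32.5 CPM in pBabe-GNA13 and at 36.2, 35.5 and 36.1 CPM in pBabe-vector. The groups did not overlap, and its log2 fold change of −0.15 (adjusted p = 0.765, 0.0820 with the block) was the lowest among the 20 genes given by range. GOSR1 of the Golgi, VTI1A of the trans-Golgi network, VTI1B of late endosomes and BNIP1 of the endoplasmic reticulum had log2 fold changes from 0.02 to 0.07, all with overlapping groups. VTI1B shares 15.7% of its exon bases with ARG2 on the opposite strand, whose log2 fold change was 0.63 (adjusted p = 6.87e-09 with the block), and whether the counting used strand is not given in the sources used here.

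Of the 6 Qc-SNAREs, 5 were below 0 and 2 of these fell with the block. STX10 works with STX16, VTI1A and VAMP3 in the return of mannose 6-phosphate receptors from endosomes to the trans-Golgi network. It was at 37.5, 35.96 and 44.2 CPM in pBabe-GNA13 libraries std, 2 and 3, and at 44.4, 48.7 and 49.3 CPM in pBabe-vector. The highest pBabe-GNA13 library, replicate 3, lay just below the lowest pBabe-vector library, replicate 1. STX10 (chr19:13144058-13150383, - strand) had a log2 fold change of −0.28 ± 0.11 (SE), with an adjusted p of 0.558 without the block and 0.0014 with it. Within this complex, STX16 and STX10 thus fell with the block, whereas VTI1A (log2 fold change 0.03) and VAMP3 (−0.0061) were not called.

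USE1, a Qc-SNARE of the endoplasmic reticulum that receives vesicles returning from the Golgi, was at 27.5, 26.9 and 22.9 CPM in pBabe-GNA13 and at 33.9, 32.3 and 25.8 CPM in pBabe-vector. The groups overlapped, since pBabe-vector replicate 3 lay below 2 of the pBabe-GNA13 libraries, but each pBabe-GNA13 library was below its pair. USE1 (chr19:17215346-17219829, + strand) had a log2 fold change of −0.25 ± 0.14 (SE), with an adjusted p of 0.736 without the block and 0.0085 with it, and without the std pair the blocked adjusted p was 0.0620. Its partners STX18 and BNIP1 had log2 fold changes of −0.03 and 0.02.

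STX6, the relative of STX10 at the trans-Golgi network, was at 53.9, 53.2 and 51.5 CPM in pBabe-GNA13 and at 48.7, 49.4 and 46.2 CPM in pBabe-vector. It was thus higher without overlap, with a log2 fold change of 0.14 and an adjusted p of 0.784, or 0.0791 with the block, and was not called. STX8 of late endosomes, BET1 and BET1L of the Golgi had log2 fold changes of −0.13, −0.06 and −0.14, and of these only BET1L separated the groups, at 57.9 to 58.8 CPM in pBabe-GNA13 and 63.7 to 65.4 CPM in pBabe-vector (adjusted p = 0.752, 0.0611 with the block).

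The R-SNAREs travel on the vesicle, and 7 were measured. VAMP1 and VAMP2, the synaptobrevins that serve exocytosis at the plasma membrane, moved in opposite directions with the pairs as a block. VAMP1 was at 4.87, 6.08 and 5.52 CPM in pBabe-GNA13 libraries std, 2 and 3, and at 3.43, 3.22 and 3.80 CPM in pBabe-vector. All pBabe-GNA13 libraries were above all pBabe-vector libraries, on 109 to 207 counts per library. VAMP1 (chr12:6462237-6470677, - strand) had the largest difference of the group, a log2 fold change of 0.66 ± 0.17 (SE, 95% interval 0.26 to 1.05), with an adjusted p of 0.309 without the block and 0.0013 with it. It shares 10.4% of its exon bases with TAPBPL on the opposite strand, which was at a mean of 4.51 CPM with a log2 fold change of 0.18 (adjusted p = 0.452 with the block).

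VAMP2 was at 27.8, 38.3 and 29.9 CPM in pBabe-GNA13 and at 37.2, 46.3 and 34.9 CPM in pBabe-vector. Replicate 2 was the highest library in both lines, so that the groups overlapped, and each pBabe-GNA13 library was below its pair. VAMP2 (chr17:8159149-8163546, - strand) had a log2 fold change of −0.30 ± 0.16 (SE), with an adjusted p of 0.724 without the block and 0.0007 with it.

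VAMP3, which recycles receptors to the cell surface, was at 70.4, 61.5 and 65.4 CPM in pBabe-GNA13 and at 67.5, 64.2 and 66.4 CPM in pBabe-vector. VAMP8, the partner of SNAP29 and STX17 on lysosomes, was at 41.8, 37.5 and 38.2 CPM against 35.2, 38.6 and 34.96 CPM. The groups overlapped for both. VAMP3 had a log2 fold change of −0.0061 ± 0.09 (SE), with a 95% interval of −0.22 to 0.20 and an adjusted p that rounds to 1. For VAMP8 it was 0.11 ± 0.10 (SE), with an interval of −0.12 to 0.34 and an adjusted p of 0.901.

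VAMP4 of the trans-Golgi network, VAMP5 and YKT6, a lipid-anchored R-SNARE of the Golgi, had log2 fold changes of 0.08, 0.14 and −0.07 and were not called in either fit. YKT6 shares 30.3% of its exon bases with CAMK2B on the opposite strand. CAMK2B was at a mean of 43.5 CPM with a log2 fold change of −0.19 (adjusted p = 0.0182 with the block). The interval for VAMP5 ran from −0.98 to 1.25, so that differences within that range were not excluded at this depth. SEC22A and SEC22C, relatives of the endoplasmic reticulum R-SNARE SEC22B, had log2 fold changes of 0.06 and −0.00057.

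NSF, the ATPase that unwinds spent SNARE complexes, was at 69.8, 57.9 and 67.5 CPM in pBabe-GNA13 libraries std, 2 and 3, and at 74.1, 73.3 and 70.3 CPM in pBabe-vector. All pBabe-GNA13 libraries were below all pBabe-vector libraries, and replicate 2 had the widest gap. NSF (chr17:46590669-46757679, + strand) had a log2 fold change of −0.16 ± 0.10 (SE), with an adjusted p of 0.802 without the block and 0.0454 with it, and without pair 2 the blocked adjusted p was 0.546. The pseudogene NSFP1 on the same chromosome had no entry, and how reads that match both were counted is not given in the sources used here.

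The adaptors of NSF were not called in either fit. NAPA was at 68.0, 65.7 and 70.0 CPM in pBabe-GNA13 and at 67.8, 65.1 and 79.7 CPM in pBabe-vector, with pBabe-vector replicate 3 standing above the others. NAPG was at 58.1, 57.1 and 58.55 CPM against 59.8, 58.59 and 58.7 CPM, which separated the groups by a narrow margin. The log2 fold change was −0.06 ± 0.10 (SE, 95% interval −0.30 to 0.18, adjusted p = 0.975) for NAPA. For NAPG it was −0.03 ± 0.08 (SE, interval −0.22 to 0.16), with an adjusted p that rounds to 1.

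The spread between pairs and between lines was set side by side by unlike measures. A range of 3 pair means tends to exceed a difference of 2 line means by spread alone. Over the 34 SNARE genes with a mean log2 CPM above 1, the range between pair means was larger than the difference between lines in 22 (64.7%). The share was 82.1% of 12778 such genes of the table. The median range between pairs was 0.158 on the log2 scale and the median size of the line difference 0.07, beside 0.309 and 0.111 over the 12778 genes. Pair 3 was the lowest in 15 genes, pair 2 in 11 and the std pair in 9.

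Genes of some chromosomes were shifted as a whole between the lines, and several of the called SNARE genes lie on those chromosomes. The median log2 fold change of expressed genes was 0.29 on chromosome 12, which holds VAMP1 and STX2. It was −0.21 on chromosome 20, which holds STX16, and −0.15 on chromosome 22, which holds SNAP29. On chromosome 9, which holds STX17, it was 0.12, while on chromosomes 17 and 19, which hold VAMP2, NSF, STX10 and USE1, it was −0.04 and −0.01.

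With chromosome medians set to 0 and the pairs as a block, 4 of the 35 genes passed, all lower, beside 13.9% of all genes. These were STX10 (log2 fold change −0.27, adjusted p = 0.0031), VAMP2 (−0.27, 0.0040), USE1 (−0.24, 0.0170) and STX16 (−0.18, 0.0456). Both genes of chromosome 12 were no longer called, STX2 at a log2 fold change of 0.02 (adjusted p = 0.894) and VAMP1 at 0.36 (0.0969). SNAP29 was at −0.03 (adjusted p = 0.762) and NSF at −0.12 (0.173).

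Other genes of the vesicle fusion pathway were taken from 7 lists with 50 genes, all of them in the table. These were further SNARE and SNAP genes, SM proteins and SNARE-binding proteins, the HOPS and CORVET tethers of endosomes and lysosomes, the exocyst of the plasma membrane, the GARP and EARP tethers, the COG complex of the Golgi and the Dsl1 tether of the endoplasmic reticulum. None of the 50 passed without the block (smallest adjusted p = 0.277, 1 gene at an unadjusted p under 0.05), and their median log2 fold change was −0.01. With the block 5 passed (10.0%, again beside 19.7% of all genes), of which 1 rose and 4 fell. None was called among the further SNARE genes, COG and Dsl1.

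VPS54, the GARP subunit that acts with STX16, STX6 and VAMP4 at the trans-Golgi network, rose. It was at 35.8, 41.3 and 35.6 CPM in pBabe-GNA13 and at 28.9, 26.4 and 23.2 CPM in pBabe-vector, without overlap, a log2 fold change of 0.52 ± 0.12 (SE, adjusted p = 0.277 without the block and 3.34e-06 with it). COG2 (log2 fold change 0.14, adjusted p = 0.0868 with the block) and TGFBRAP1 of CORVET (0.12, 0.156) came next among the higher genes and were not called.

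STXBP6, also called amisyn, which binds plasma membrane syntaxins, fell with the block. It was at 5.43, 6.52 and 4.13 CPM in pBabe-GNA13 and at 6.96, 9.39 and 5.89 CPM in pBabe-vector, a log2 fold change of −0.47 ± 0.24 (SE, adjusted p = 0.708 without the block and 0.0059 with it). VPS11, a core subunit of HOPS and CORVET, fell by 0.21 on the log2 scale (adjusted p = 0.624 without the block and 0.0219 with it). EXOC4 of the exocyst, which falls outside the naming rule and is given because only 5 genes passed, fell by 0.17 (adjusted p = 0.936 without the block and 0.0292 with it). STXBP6, VPS11 and EXOC4 were each lower in all 3 pairs, and of these only VPS11 had groups that did not overlap. VPS54 and STXBP6 were called with any pair left out, VPS11 without pair 2 but not without either other pair, and EXOC4 under none of these 3 omissions. By DESeq2 VPS54 alone was called, with the block and without it, where 1.57% of all genes passed without it.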

How the data were processed

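RNA of LNCaP lines stably carrying pBabe-GNA13 or pBabe-vector (n = 3 libraries each) was sequenced as 150-nucleotide paired reads. Per the methods and labels, the authors checked reads with FastQC 0.11.7, aligned them with STAR to Gencode transcripts and aggregated them with featureCounts, whose strand setting is not given in the sources used here. The values deposited for each gene symbol are raw read counts, all whole numbers, although the methods describe log2 CPM. All 6 columns were used.

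The quasi-likelihood test of edgeR 4.0.16 (glmQLFit, glmQLFTest; R 4.3.3) was run on all 17297 genes without a filter, after TMM normalization, with line as the only term, and a gene was called at a Benjamini-Hochberg adjusted p below 0.05. The study names limma, so limma-trend (limma 3.58.1) and DESeq2 1.42.0 were alternatives. The script was tested on simulated counts. The fit with the pairs as a block is given beside it, because the replicate numbers and the tag std in the column headings pair the libraries. Deviations from the group means correlated within pairs at 0.659 (std), 0.807 (2) and 0.888 (3) and between pairs at −0.736 to 0.125 (Pearson's r over 12778 genes, and genes are no independent replicates). The pBabe-GNA13 column with the tag carries the number of replicate 2, so that library is named by its tag. What std stands for is not given in the sources used here.

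CPM values are TMM-normalized, log2 CPM has a prior count of 2, intervals are 95% intervals of the fit, and errors are SD or, where stated, SE. Chromosomes were centred on the median log2 fold change of their genes above a mean log2 CPM of 1, where at least 20 were present. Exact two-sided permutation tests used SciPy 1.17.1 under Python 3.11.15, with pandas 2.3.3 and NumPy 2.4.6 for tables and matplotlib 3.10.9 for figures. Coordinates and exon lengths are from Gencode 44 (GRCh38), to which 14482 of 17297 symbols matched, and promoters from RefSeq (GRCh38.p14).

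The 36 genes, the 7 lists of other vesicle fusion genes and the markers were chosen with earlier results of these data known. Given in full are SNAP23, STX3, STX4, VAMP2, VAMP3, VAMP8, NSF, NAPA, NAPG and every other SNARE gene called with or without the block. The rest are given by range and count, with the highest and lowest. Of the other lists, genes called without the block and, with it, the 3 of smallest p in each direction are named. Some genes that this rule or the marker list covers are not reported here, but were kept in all counts. Alternatives covered normalization, filter, dispersion, tool, left-out libraries or pairs and chromosome centring. Those chosen after seeing the data are limma-trend and DESeq2 with the block and the newer edgeR method.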

Additional observations from a re-analysis of the deposited data

How the results depend on the processing

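Without the block, no SNARE gene was called under any alternative tried. With the replicate block, 8 SNARE genes and 5 other vesicle fusion genes were called, against 0 and 0 without it. The blocked counts were 0 and 0 by limma-trend, 4 SNARE genes with chromosomes centred and 1 other gene by DESeq2, and leaving out a pair gave 7 SNARE genes each time (20%) and 2 to 4 other genes (4.0% to 8.0%), beside 13% to 18.9% of all genes. The cause of the difference between the tools was not tested. The DESeq2 Wald test without the block called 1 other gene. STX16, STX10 and VAMP2 were called in every blocked alternative except limma-trend.

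The median log2 fold change of the SNARE genes (−0.03) was 0.0022 with chromosomes centred and 0.0039 by library totals only, and −0.049 to −0.0098 leaving out 1 library. With the block it was −0.00035 with chromosomes centred and −0.031 to 0.010 leaving out 1 pair.

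Fold changes near 0 changed sign. With chromosomes centred, log2 fold changes of the opposite sign were −0.0086 (SNAP47), 0.020 (STX3), 0.0022 (STX4), 0.023 (STX5), 0.016 (STX18) and 0.038 (SEC22C). By library totals only they were 0.0034 (STX5), 0.0087 (STX18), 0.027 (VAMP3), 0.031 (SEC22C) and 0.0039 (NAPG), with a filter on low counts 0.0056 (VAMP3) and 0.011 (SEC22C), and by limma-trend and with the replicate block 0.0013 (SEC22C).

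Leaving out 1 library turned the sign of 17 of the 35 genes, the largest of which had a log2 fold change of 0.14, and of none called with the block. The ranges were −0.024 to 0.21 for SNAP23, −0.017 to 0.083 for SNAP47, −0.087 to 0.0040 for STX3, −0.092 to 0.034 for STX4, −0.10 to 0.033 for STX5, −0.14 to 0.082 for STX7, −0.058 to 0.024 for STX18, −0.011 to 0.070 for GOSR1, −0.015 to 0.16 for VTI1B, −0.066 to 0.11 for BNIP1, −0.15 to 0.062 for BET1, −0.049 to 0.040 for VAMP3, −0.039 to 0.30 for VAMP4, −0.25 to 0.43 for VAMP5, −0.00066 to 0.10 for SEC22A, −0.047 to 0.057 for SEC22C and −0.12 to 0.031 for NAPA. Where this left a line with fewer libraries, the spread was still estimated over the remaining 5. Depth limits VAMP5, and 3 libraries per line limit all single-gene permutation tests.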

Other observations

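Ratios of close relatives are given as a description without a test, since the gene pairs were chosen after their values had been seen. The log2 ratio of STX10 to STX6, both Qc-SNAREs of the trans-Golgi network, was −0.52, −0.56 and −0.22 in the pBabe-GNA13 libraries and −0.13, −0.02 and 0.10 in the pBabe-vector libraries. The means were −0.44 ± 0.19 and −0.02 ± 0.11 (SD, n = 3). The log2 ratio of VAMP2 to VAMP1 was 2.53 ± 0.11 in pBabe-GNA13 and 3.49 ± 0.33 in pBabe-vector. That of VAMP2 to VAMP3 was −1.05 ± 0.34 and −0.75 ± 0.25, and the groups overlapped.

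Both lines ordered their libraries alike in 15 of the 35 genes, with the same pair highest and the same pair lowest. SNAP23 was among them, and its range between pair means was 0.453 on the log2 scale beside a line difference of 0.08. The same count over all genes was not made, so whether 15 of 35 is particular to SNARE genes cannot be said.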
